A study of Mus musculus with 20 samples.

Results

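The 10 genes described here encode mitotic kinases, spindle motors and spindle checkpoint proteins: Bub1, Bub1b, Aurka, Aurkb, Plk1, Birc5, Cenpe, Kif11, Tpx2 and Cdc20. They were taken by symbol from a table of 34620 gene symbols, and all 10 were found and passed the filter on low counts. The study examined mouse brain across development, and 14 of its samples, bisulfite libraries, are not used here. The 6 RNA libraries were made from regions microdissected out of frozen brain sections, and their labels give male wild-type C57BL/6 animals, no treatment and no age. Hippocampal precursors (HP), striatal precursors (SP), young hippocampal CA neurons of the pyramidal type (yCA) and young medium spiny neurons (yMSN, "Medial Spiny Neurons" in the labels) are each 1 library. Dorsal medium spiny neurons (dMSN) are 2 libraries, and the hippocampal lineage has no library of that last stage. Nothing in the labels says whether animals were pooled or whether the dMSN pair came from separate animals, so p-values measure only the spread between these libraries, which may be technical.

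In a dividing cell, Plk1 and Aurka drive entry into mitosis and the maturation of the spindle poles, while the kinesin Kif11 pushes the poles apart. Aurkb and Birc5 sit in the chromosomal passenger complex, which corrects faulty attachments of chromosomes to the spindle. The checkpoint kinase Bub1 and its relative Bub1b act at unattached kinetochores and hold back Cdc20, the activator of the anaphase promoting complex, until every chromosome is attached. In the embryonic forebrain such divisions take place mainly in progenitors near the ventricles, and the neurons born from them no longer divide.

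Gene counts summed to between 31282185 and 36969136 in the precursor and young libraries, and to 152347673 in dMSN 1 and 145713678 in dMSN 2. Levels are given as CPM, read counts relative to a library size scaled by the trimmed mean of M values (TMM), and 3 counts, the most that a count of 0 allows, correspond to between 0.0249 CPM in dMSN 1 and 0.0864 CPM in HP. Such floors and the intervals below cover counting error only. Of the Y-linked genes, Kdm5d, Ddx3y and Eif2s3y were at 0 counts in SP and yCA, and Xist stood at 1087 and 761 CPM there. Both HP and yMSN held Xist (859.8 and 490.2 CPM) together with Y-linked reads (Ddx3y at 7.83 and 20.3 CPM). All 4 libraries thus go against their label as male, and results are also given without each of them where a fit allows it. Markers of tissue outside the brain were high in the young libraries. All 10 skeletal muscle markers were above the floor there, and their sum was 5689 CPM (yCA) and 2074 CPM (yMSN), with 9.77 to 45.2 CPM in the other libraries. The 8 epidermal markers summed to 331 (yCA) and 469 CPM (yMSN), and elsewhere to 0.842 to 24.2 CPM. The 8 cartilage and bone markers summed to 785 (yMSN) and 48.7 CPM (yCA) at the young stage, and to 599.8 (HP) and 489 CPM (SP) before it. In the precursors Col2a1 alone stood at 548 (HP) and 451 CPM (SP). The median of the 8 was 0.432 (HP), 0.629 (SP), 1.28 (yCA) and 39.7 CPM (yMSN). The 7 olfactory epithelium markers summed to 201 (yCA) and 315 CPM (yMSN), to 417 and 418 CPM in the dMSN pair and to 20.9 and 21.8 CPM in the precursors. Gnal alone stood at 391 and 385 CPM in the dMSN pair, 164 CPM in yCA and 145 CPM in yMSN. By contrast, Omp stood at 43.0 CPM in yMSN and at 1.27 CPM or less in every other library. The 10 medium spiny neuron markers had a sum no higher in yMSN (482 CPM) than in yCA (605 CPM), and summed to 6466 and 6445 CPM in the dMSN pair. Bcl11b alone stood at 296 (yMSN) and 360 CPM (yCA). Penk (39.5 against 23.6 CPM), Tac1 and Drd2 were higher in yMSN than in yCA, and the other markers were lower. The 8 hippocampal pyramidal markers summed to 1129 CPM (yCA) and 549 CPM (yMSN), and higher still, to 1377 and 2016 CPM, in the dMSN pair. Of these, Slc17a7, a glutamate transporter of excitatory neurons, stood at 936 and 1480 CPM in dMSN.

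All 10 transcripts were highest in the precursors, lower in the young libraries and lowest in dMSN. For each of the 10, both precursor libraries lay above both young libraries, which in turn lay above both dMSN libraries; 18.6% of all genes tested showed that order. Summed over the 10 genes, the level was 1894 (HP) and 1762 CPM (SP) in precursors, 399.6 (yCA) and 493 CPM (yMSN) in young tissue, and 21.8 and 20.6 CPM in dMSN 1 and dMSN 2. These are bulk libraries, so fewer dividing cells and less RNA per dividing cell cannot be told apart.

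**Figure D1:**
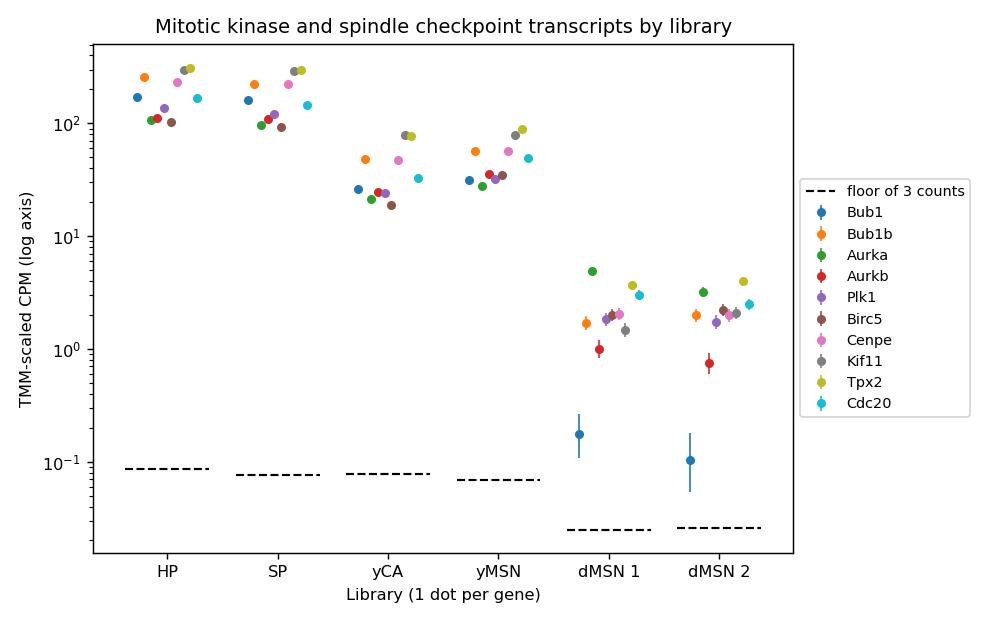
TMM-scaled CPM (log axis) of each of the 10 genes in each of the 6 libraries, with 95% Poisson counting intervals as bars, mostly smaller than the dots, and the floor of 3 counts as a dashed line. The dots lie between 92.1 and 309 CPM in the precursors, between 18.9 and 89.4 CPM in the young libraries and at or below 4.95 CPM in dMSN, with the longest drop for Bub1.

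The checkpoint kinase Bub1 had the steepest course. It stood at 170.9 (HP) and 160.7 CPM (SP) in precursors, 26.3 (yCA) and 31.2 CPM (yMSN) in young tissue, and 0.174 and 0.103 CPM in dMSN 1 and dMSN 2. The dMSN values rest on 21 and 12 counts, above the floor in both libraries. Bub1b, whose product binds Cdc20 within the mitotic checkpoint complex, stood at 257 (HP) and 223 CPM (SP) in precursors, 47.8 (yCA) and 56.7 CPM (yMSN) in young tissue, and 1.70 and 1.98 CPM in dMSN 1 and dMSN 2. The levels of Bub1b and Bub1 fell from stage to stage without overlap, as did those of all 10 genes and of 18.6% of all genes tested. Cdc20 itself stood at 169.0 (HP) and 146 CPM (SP) in precursors, 33.0 (yCA) and 49.3 CPM (yMSN) in young tissue, and 3.0 and 2.49 CPM in dMSN 1 and dMSN 2.

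Among the kinases of mitotic entry and their cofactor, Plk1 stood at 136 (HP) and 120.3 CPM (SP) in precursors, 24.2 (yCA) and 32.4 CPM (yMSN) in young tissue, and 1.84 and 1.74 CPM in dMSN 1 and dMSN 2. Aurka stood at 106 (HP) and 95.9 CPM (SP) in precursors, 21.3 (yCA) and 28.1 CPM (yMSN) in young tissue, and 4.95 and 3.21 CPM in dMSN 1 and dMSN 2. Aurka thus kept the largest share of its precursor level in dMSN, 4.26% of SP, and its 2 dMSN values lay further apart than their counting intervals. In the RefSeq table of another build Aurka overlaps Cstf1, a gene of RNA 3' processing that stood at 45.0 and 46.2 CPM in dMSN, and no strand setting of the counting is stated. The part of such overlap in the Aurka level was not tested. Tpx2, the spindle factor that binds and activates Aurka, stood at 309 (HP) and 300.3 CPM (SP) in precursors, 77.5 (yCA) and 89.4 CPM (yMSN) in young tissue, and 3.65 and 3.99 CPM in dMSN 1 and dMSN 2.

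Of the passenger complex genes, Aurkb stood at 112 (HP) and 110.3 CPM (SP) in precursors, 24.7 (yCA) and 35.8 CPM (yMSN) in young tissue, and 1.01 and 0.747 CPM in dMSN 1 and dMSN 2. Birc5, which encodes survivin, stood at 102 (HP) and 92.1 CPM (SP) in precursors, 18.9 (yCA) and 34.7 CPM (yMSN) in young tissue, and 1.99 and 2.23 CPM in dMSN 1 and dMSN 2. As a ratio, Birc5 had the widest gap of the 10 between the young libraries, with a log2 ratio of 0.88 for yMSN over yCA. Of the motors, Kif11 stood at 299.6 (HP) and 288 CPM (SP) in precursors, 78.5 (yCA) and 78.5 CPM (yMSN) in young tissue, and 1.48 and 2.08 CPM in dMSN 1 and dMSN 2. Cenpe, the kinetochore kinesin that brings chromosomes to the spindle equator, stood at 231 (HP) and 225 CPM (SP) in precursors, 47.3 (yCA) and 57.0 CPM (yMSN) in young tissue, and 2.04 and 1.98 CPM in dMSN 1 and dMSN 2. Kif11 was the sole gene of the 10 whose counting interval for yMSN over yCA included 0. The RefSeq table places the pseudogenes Gm8663 and Gm46649 within Kif11, so its counts are less certain.

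The promoter windows of these genes are shown because their transcripts moved together. RefSeq (GRCm38.p6) gave a window for 8 of the 10, from 250 bases before to 50 bases after the start, and none was matched for Aurkb and Tpx2. A script searched both strands for TTTGAA, the core of the cell cycle genes homology region (CHR), for CCAAT, the box bound by NF-Y, and for TTCCCGC, an E2F core. The 5 printed windows are Plk1, Cdc20 and Kif11, which hold a CHR and a CCAAT match, Bub1, which fell the most and holds CCAAT matches alone, and Birc5, which holds none of the 3 motifs. They are Plk1 at chr7:122159185-122159484 on the plus strand, Cdc20 at chr4:118437294-118437593 on the minus strand, Kif11 at chr19:37376132-37376431 on the plus strand, Bub1 at chr2:127831810-127832109 on the minus strand and Birc5 at chr11:117848987-117849286 on the plus strand. Capitals mark the matches, on the strand of the gene, and a match on the other strand reads TTCAAA or ATTGG.
Plk1: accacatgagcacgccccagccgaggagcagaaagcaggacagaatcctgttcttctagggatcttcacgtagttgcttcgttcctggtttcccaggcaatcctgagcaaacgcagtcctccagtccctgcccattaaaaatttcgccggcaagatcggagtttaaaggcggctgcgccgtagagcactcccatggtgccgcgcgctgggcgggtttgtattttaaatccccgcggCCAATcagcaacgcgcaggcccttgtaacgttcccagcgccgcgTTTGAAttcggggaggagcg
Cdc20: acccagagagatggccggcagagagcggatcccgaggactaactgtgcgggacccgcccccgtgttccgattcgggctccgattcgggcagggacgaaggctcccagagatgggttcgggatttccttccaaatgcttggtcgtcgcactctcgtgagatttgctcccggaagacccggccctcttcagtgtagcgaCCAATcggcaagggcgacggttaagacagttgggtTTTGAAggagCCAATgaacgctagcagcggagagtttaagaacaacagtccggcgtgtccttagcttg
Kif11: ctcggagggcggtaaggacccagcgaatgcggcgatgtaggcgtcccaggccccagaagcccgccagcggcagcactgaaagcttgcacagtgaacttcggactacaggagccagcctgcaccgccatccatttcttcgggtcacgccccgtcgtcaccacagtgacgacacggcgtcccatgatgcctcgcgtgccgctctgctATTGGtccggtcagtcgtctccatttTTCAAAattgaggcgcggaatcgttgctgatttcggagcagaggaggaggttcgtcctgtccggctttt
Bub1: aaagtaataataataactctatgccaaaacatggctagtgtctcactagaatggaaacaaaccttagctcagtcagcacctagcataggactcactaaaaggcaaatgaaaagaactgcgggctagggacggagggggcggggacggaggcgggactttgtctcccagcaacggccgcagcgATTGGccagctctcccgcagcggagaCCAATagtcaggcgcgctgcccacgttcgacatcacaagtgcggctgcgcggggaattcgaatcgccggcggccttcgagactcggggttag
Birc5: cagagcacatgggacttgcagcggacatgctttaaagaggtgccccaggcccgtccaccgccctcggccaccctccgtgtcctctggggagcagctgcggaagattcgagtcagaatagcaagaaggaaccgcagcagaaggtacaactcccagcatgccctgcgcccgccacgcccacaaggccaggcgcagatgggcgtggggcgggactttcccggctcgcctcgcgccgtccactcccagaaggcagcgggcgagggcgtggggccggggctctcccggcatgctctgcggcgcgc

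A CHR match was present in 5 of the 8 windows (62.5%), against 17.9% of all 32851 windows of that length and 12.1% of the 15104 windows of genes that passed the filter. A CCAAT match was present in 7 of the 8 (87.5%), against 37.4% of all windows and 37% of those of filtered genes. The E2F core was in none of the 8, against 4.6% of all windows and 7.42% of those of filtered genes. In Plk1, Aurka and Bub1b the CHR match began 31, 33 and 41 bases past the start, and in Kif11 and Cdc20 it began 19 and 18 bases before it. With 8 windows and no test, these shares describe letters only, and no binding was measured here.

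**Figure D2:**
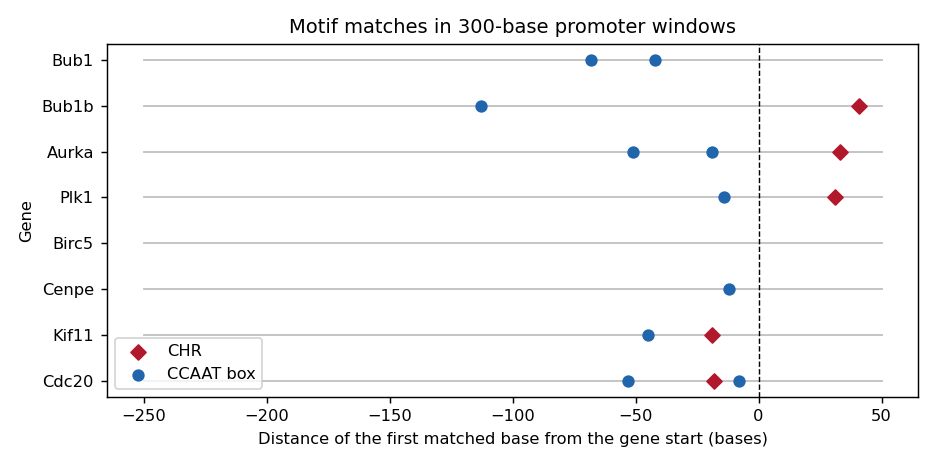
Position of each CHR match (diamonds) and CCAAT match (circles) in the 300-base windows of the 8 genes with a RefSeq promoter, as the distance in bases of the first matched base from the gene start (dashed line). All matches but the CCAAT of Bub1b lie within 68 bases of the start, and the Birc5 line is empty.

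Both lineages lost most of these transcripts between precursor and young tissue. In yCA the 10 genes retained 15.4% (Bub1) to 26.2% (Kif11) of their HP level, and in yMSN they retained 19.4% (Bub1) to 37.6% (Birc5) of their SP level. In edgeR's quasi-likelihood test over both lineages with Benjamini-Hochberg adjustment, all 10 fell, with log2 changes of -2.53 to -1.87 and a median of -2.00. Of the 18231 genes tested, 14.7% were called lower, and the median log2 change of all genes was 0.08.

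Bub1 had a log2 change of -2.53 (SE 0.214, edgeR adjusted p = 0.0023). Bub1b had a log2 change of -2.20 (SE 0.186, edgeR adjusted p = 0.0023) and Plk1 one of -2.19 (SE 0.198, edgeR adjusted p = 0.0026). Cenpe, with the lowest adjusted p of the 10, changed by -2.13 (SE 0.154, edgeR adjusted p = 0.0019). The log2 change was -2.04 for Aurka, -1.96 for Cdc20, -1.92 for Birc5, -1.90 for Kif11 and Aurkb and -1.87 for Tpx2. Birc5 had the highest adjusted p, 0.0070. All 10 were also called lower without HP (median -1.84), SP (-2.33), yCA (-1.93) or yMSN (-2.33). The lists of non-neural markers moved with this contrast: all 10 muscle markers rose (median log2 change 8.53), and 7 of 8 erythroid markers fell (list median -5.17), from summed levels of 2004 and 2078 CPM in the precursors to 24.5 and 37.3 CPM in young tissue. Their part in the fall of the 10 genes was not tested.

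In each single pair all 10 genes were at least 2-fold lower in young tissue. Of genes that reached 5 CPM in either library of the pair, 13.8% were that much lower in yCA than in HP and 9.12% in yMSN than in SP. The ratio was lower in the hippocampal pair for all 10, against 48.8% of genes at that level. Its median over the 10 was -2.34 in the hippocampal pair and -1.82 in the striatal pair. For 9 of the 10 the counting intervals of the 2 ratios did not overlap, Kif11 being the exception. The share of all genes without such overlap was not computed, and the intervals hold no spread between libraries. This count is therefore not a measure of a difference between lineages. Birc5 differed most: its log2 ratio was -2.44 (95% counting interval -2.56 to -2.32) in the hippocampal pair and -1.41 (-1.50 to -1.32) in the striatal pair. Cdc20 followed, at -2.36 (-2.44 to -2.27) and -1.57 (-1.64 to -1.50).

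Tested directly as a difference between the changes, in a model whose 1 residual degree of freedom is that of the dMSN pair, none of the 10 passed in edgeR, DESeq2 or limma voom. On simulated data the edgeR test did not recover differences of the size seen in the 10, so these results do not show that the lineages changed alike. Of all genes, 5.2% passed in either direction in edgeR. Birc5 had a difference of 1.02 on the log2 scale (SE 0.341, edgeR adjusted p = 0.122) and Cdc20 one of 0.78 (SE 0.337, edgeR adjusted p = 0.265). These 2 of the 10 had an unadjusted p below 0.05 in edgeR, as had 3138 of all 19192 genes tested. Each pair is 1 library against 1, and the 2 young libraries also differed in the muscle, cartilage and epidermal sums given above.

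**Figure D3:**
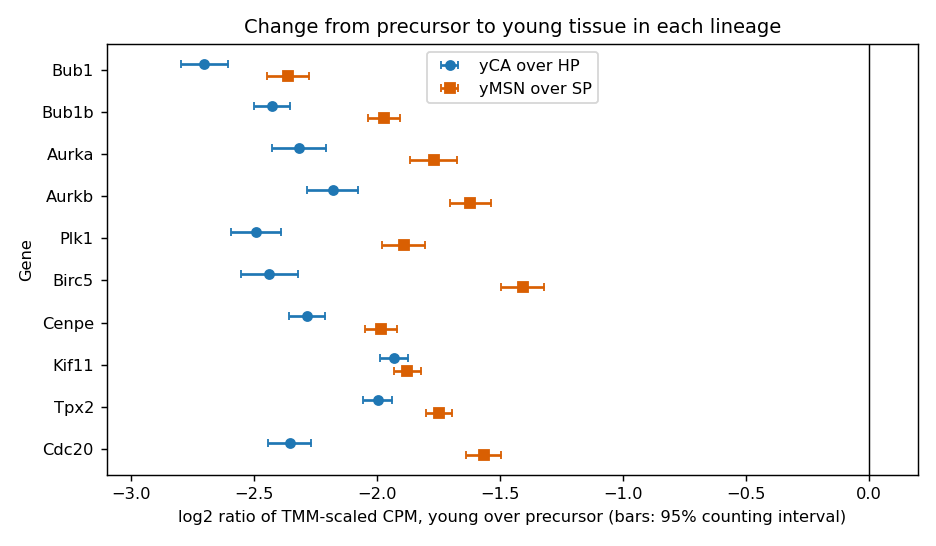
log2 ratio of TMM-scaled CPM in young over precursor tissue for each of the 10 genes, for the hippocampal pair (circles) and the striatal pair (squares), with 95% counting intervals as bars. All ratios lie between -2.70 and -1.41, and the circles lie to the left of the squares for every gene, by the least for Kif11.

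No difference between striatal and hippocampal libraries passed the test for any of the 10 genes. In the model with lineage and stage, log2 differences ran from -0.03 (Kif11) to 0.36 (Birc5, SE 0.273), with a median of 0.12, and none passed in edgeR, with 0 of the 10 at an unadjusted p below 0.05. Of all genes 0% passed, with 721 of 18231 at an unadjusted p below 0.05. The 2 stages went opposite ways in value, which is the difference of changes tested above. Among precursors all 10 were lower in SP than in HP, as were 52.9% of genes that reached 5 CPM. Their log2 ratios of SP over HP were -0.21 or nearer to 0, with counting intervals that included 0 for Aurkb and Cenpe. Among young libraries 9 were higher in yMSN than in yCA, as were 46.5% of genes, by up to 0.88 on the log2 scale (Birc5). Accordingly the median difference was -0.11 without yCA and -0.12 without yMSN, and 0.33 without HP or without SP. Neither DESeq2 nor limma voom called any of the 10.

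From yMSN to dMSN all 10 genes fell, with log2 changes of -7.78 (Bub1) to -2.77 (Aurka) and a median of -4.68 in edgeR, where 35.4% of the 19192 genes tested were called lower and the median of all genes was -0.11. The p-values of this comparison hold no spread between yMSN libraries, and their 1 residual degree of freedom is that of the dMSN pair. Bub1 had an SE of 0.279 and an edgeR adjusted p of 1.1e-09. Kif11 had a log2 change of -5.46 (SE 0.239, edgeR adjusted p = 4.0e-09) and Aurkb one of -5.34 (SE 0.237, edgeR adjusted p = 4.1e-09). The log2 change was -4.93 for Bub1b, -4.81 for Cenpe and -4.54 for Tpx2. It was -4.17 for Plk1, -4.16 for Cdc20 and -4.03 for Birc5. Aurka had the highest adjusted p of the 10, 9.6e-07, and an SE of 0.247. The median log2 change of the 10 was -4.68 without HP and without SP and -4.66 without yCA, and yMSN could not be left out. Leaving out a dMSN library required lineage and stage as terms. With those fits included, log2 changes without single libraries ranged from -8.11 to -7.38 for Bub1 and from -2.98 to -2.37 for Aurka. The 10 muscle markers also fell here (median -7.85), as did all 8 epidermal markers, and their part in these values was not tested.

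Over the whole striatal course, from SP to dMSN, all 10 fell, with log2 changes of -10.15 (Bub1) to -4.55 (Aurka) and a median of -6.55 in edgeR and a highest adjusted p of 1.0e-08. Of all genes 33.1% were called lower there. This comparison shares the dMSN libraries with the one before it and SP with the first, and its p-values hold no spread between SP libraries. The median log2 change of the 10 was -6.56 without HP, -6.64 without yCA and -6.55 without yMSN, and SP could not be left out. Relative to SP, the median gene of the 10 retained 1.08% of its level in dMSN. The part of each gene's log2 fall that had been reached in yMSN was 23.2% (Bub1) to 38.9% (Aurka), with a median of 27.5%. Each gene thus had the larger part of its log2 fall after the young stage, a difference that was not tested.

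Low levels of all 10 transcripts were measurable in dMSN. Bub1 averaged 0.139 ± 0.0505 CPM (SD, n = 2) and Aurkb 0.876 ± 0.183 CPM (SD, n = 2). Kif11 averaged 1.78 ± 0.424 CPM, Plk1 1.79 ± 0.0657 CPM, Bub1b 1.84 ± 0.198 CPM, Cenpe 2.01 ± 0.0425 CPM and Birc5 2.11 ± 0.169 CPM (SD, n = 2 each). Cdc20 averaged 2.75 ± 0.360 CPM, Tpx2 3.82 ± 0.238 CPM and Aurka 4.08 ± 1.23 CPM (SD, n = 2 each). The 2 libraries had no common order, with 6 genes higher in dMSN 1 and 4 in dMSN 2. Markers of glia were abundant in the same libraries. The 6 oligodendrocyte precursor markers summed to 567 and 454 CPM in dMSN 1 and dMSN 2, the 6 markers of myelinating oligodendrocytes to 8396 and 7117 CPM, the 8 of microglia to 609.9 and 555 CPM and the 6 of astrocytes to 1370 and 1383 CPM. All of these markers were above the floor in both libraries, and their part in the remaining mitotic transcripts was not tested. Of the 6 oligodendrocyte precursor markers, 4 stood higher in dMSN than in yMSN and 2, Pdgfra and Cspg4, stood lower. Pdgfra was at 116 CPM in yMSN and at 27.2 and 27.0 CPM in the dMSN pair. Cspg4 was at 43.4 CPM in yMSN and at 23.2 and 18.9 CPM in the dMSN pair. Cdc20 overlaps Elovl1, an enzyme of fatty acid elongation, in the RefSeq table of another build, and Elovl1 stood at 45.4 and 31.9 CPM in dMSN.

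The wider mitotic machinery was followed in 7 lists of 124 genes. Over all genes, 14.7% were called lower and 22.8% higher in young tissue, and 35.4% lower and 32.1% higher in dMSN than in yMSN. The median log2 changes of all genes were 0.08 and -0.11. Of 12 checkpoint partners, 10 fell from precursor to young, with a median of -1.93, and 2 did not pass. Spdl1 (as Ccdc99), an adaptor for dynein at kinetochores, had a log2 change of -2.21, Zwilch, of the complex that recruits it, -2.16 and Trip13, the ATPase that disassembles the checkpoint complex, -2.11. Rae1, also a nuclear export factor, had the smallest change, at -0.38 (adjusted p = 0.079 in edgeR). At the next step, from yMSN to dMSN, 8 of the 12 fell, 3 did not pass, and Mad2l1bp, which antagonises the checkpoint protein Mad2, rose by 1.18. Bub3, the partner that brings Bub1 and Bub1b to kinetochores, fell with them by 1.03 in young tissue but stood at 105 ± 6.33 CPM in dMSN (SD, n = 2), with a log2 change of 0.25 from yMSN (adjusted p = 0.284 in edgeR).

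Of the kinetochore and centromere genes, 19 of 21 were in the files, and 17 of these fell in young tissue, with a median of -1.78. Cenph, Cenpf and Cenpa, the histone variant of centromeres, had log2 changes of -2.16, -2.08 and -2.02, and Cenpt had the smallest change, at -0.30 (adjusted p = 0.182 in edgeR). In dMSN 17 fell and 2 did not pass, with a median of -2.51. The passenger and shugoshin genes beside Aurkb and Birc5 all fell at both steps, 5 of the 5 tested, with medians of -1.92 and -3.61. Sgo1 (as Sgol1), which protects centromeric cohesion, had a log2 change of -2.19 in young tissue, the passenger subunit Cdca8 one of -2.06 and the histone kinase Haspin (as Gsg2) one of -1.92. The change of Sgo2a (as Sgol2) was -1.68. The passenger kinase of germ cells, Aurkc, was at 0 counts in the precursor and young libraries and was filtered out.

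The anaphase promoting complex is the ubiquitin ligase that Cdc20 activates. Of 18 genes of the complex, its cofactors and separase, 9 fell from precursor to young and 9 did not pass, with a median of -0.56. The separase gene Espl1 had a log2 change of -2.36, the inhibitor Fbxo5 -2.12 and the ubiquitin-conjugating enzyme Ube2c -1.91, while the subunit Anapc11 had a log2 change of 0.01 (adjusted p = 0.978 in edgeR). Without dMSN 1, and likewise without dMSN 2, 3 of the 18 were called lower. In dMSN 7 fell against yMSN, 5 rose and 6 did not pass. Those that rose were Pttg1, the subunits Anapc11 (1.69), Anapc13 (1.42) and Anapc7 (0.52), and Fzr1. Securin, encoded by Pttg1, the separase inhibitor that the complex degrades, fell by 1.07 in young tissue and rose by 2.53 in dMSN, to 64.8 ± 0.966 CPM (SD, n = 2). Fzr1, the alternative activator of the complex that is also used by non-dividing cells, fell by 0.49 in young tissue and rose by 0.64 in dMSN.

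Of 18 other mitotic kinases and cofactors found in the files, 15 fell in young tissue, 1 rose and 2 did not pass, with a median of -1.58. Ajuba (as Jub), an activator of Aurka, had a log2 change of -2.21, cyclin B1 (Ccnb1) -2.19 and Melk -2.03. The exception was Plk2, a Plk1 relative known from neurons, which rose by 1.34 in young tissue and again by 1.34 from yMSN to dMSN. It stood at 43.6 to 63.8 CPM in the precursors, 117 and 153 CPM in the young libraries and 258 and 331 CPM in dMSN, an order opposite to that of Plk1. Plk3 fell by 1.67 in young tissue and rose by 1.24 in dMSN. Of the 18 genes, 15 fell from yMSN to dMSN, 2 rose and 1 did not pass.

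Of 25 kinesins and spindle or cytokinesis genes beside Kif11, Cenpe and Tpx2, 24 fell in young tissue, with a median of -1.78. The cytokinesis kinesin Kif20a had a log2 change of -2.35, Kif15, which can act beside Kif11, -2.32 and the microtubule depolymerase Kif2c -2.15. Kif2a, a relative of Kif2c that is also used in axons, had a log2 change of 0.16 (adjusted p = 0.541 in edgeR). In dMSN 24 fell, with a median of -4.69 for the list, and 1 rose: the citron kinase gene Cit, which has a neuronal isoform, was up by 2.15 at 141 ± 38.8 CPM (SD, n = 2).

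Of 23 regulators of mitotic and cell cycle transcription, 14 fell in young tissue, 2 rose and 7 did not pass, with a median of -1.04. Mybl2, which binds CHR promoters with the MuvB complex, had a log2 change of -2.25, E2f7 -2.05 and E2f5 -1.83. The pocket protein Rbl2 rose by 1.21 and the CDK inhibitor Cdkn1a by 2.84. In dMSN 15 fell against yMSN, 6 did not pass, and Lin37 (2.09), of the MuvB complex, and Nfyc (0.88) rose. Cdkn1a was among those that fell, with a log2 change of -1.93. The 3 NF-Y genes did not pass in young tissue, at log2 changes of -0.41 (Nfyc), -0.37 (Nfya) and -0.35 (Nfyb).

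**Figure D4:**
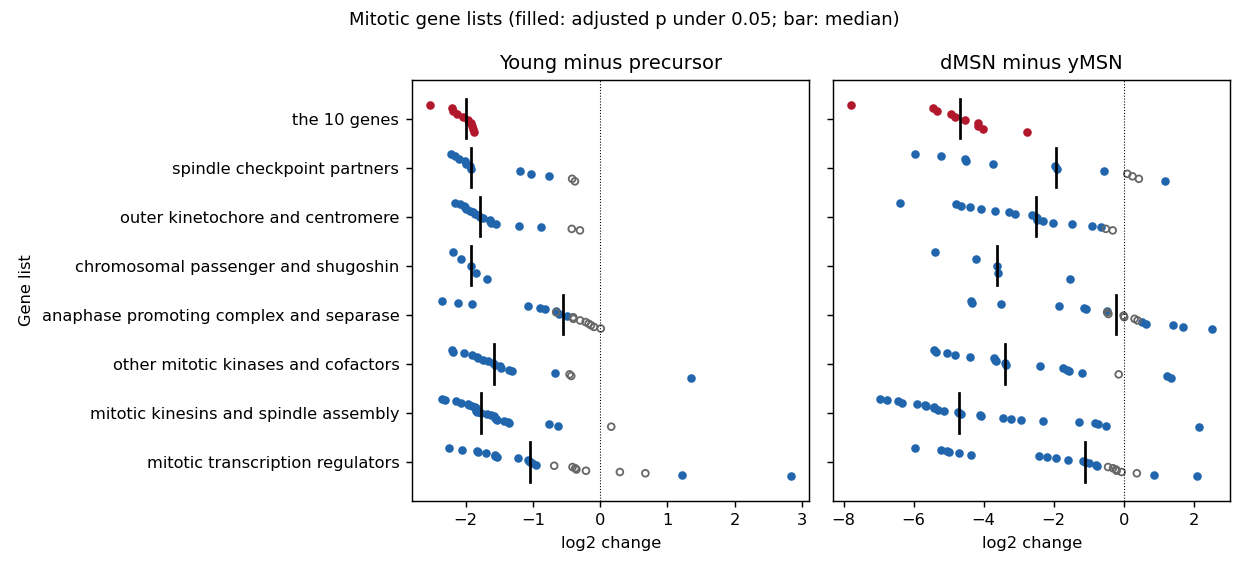
log2 change of each tested gene in the 10-gene set (top row) and in the 7 lists, from precursor to young (left) and from yMSN to dMSN (right), with filled dots for adjusted p below 0.05 in edgeR, open circles for the rest and a bar at each median. The 10 genes lie between -2.53 and -1.87 on the left and between -7.78 and -2.77 on the right, while the anaphase promoting complex row centres at -0.56 and -0.22.

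Markers of radial glia, the main progenitors, were mostly lower in young tissue. Of 10 radial glia markers found, 7 fell and 1 rose in young tissue, with a median of -0.90, and their sum was 2494 (HP) and 3481 CPM (SP) in precursors, 1570 (yCA) and 1637 CPM (yMSN) in young tissue, and 585 and 627 CPM in dMSN 1 and dMSN 2. Their summed order placed SP above HP, whereas the 10 mitotic genes were all higher in HP. That order did not hold for the whole list. Nes (1352 against 777 CPM), Vim (1269 against 1005 CPM) and most others were higher in SP, but Pax6, Hes1, Sox9 and Slc1a3 were higher in HP. Of 8 intermediate progenitor markers, 4 fell, 2 rose (Eomes and Insm1, with log2 changes of 1.66 and 0.86) and 2 did not pass in young tissue. Their sum was about as high in yCA (336 CPM) as in HP (333 CPM), lower in yMSN (279 CPM) than in SP (486 CPM), and 140 and 136 CPM in dMSN. The 6 endothelial markers, of which 1 rose in young tissue, summed to 242 to 299 CPM up to the young stage and to 61.3 and 62.8 CPM in dMSN. Neuronal markers rose in young tissue: all 7 found passed, with a median of 2.36, where 22.8% of all genes were called higher. From yMSN to dMSN 4 of them rose, 2 did not pass and 1, Dcx, fell, with a log2 change of -6.59.

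Outside the 10, the genes with the most similar course over the 6 libraries were sought by the correlation of log2 CPM with the mean centred profile of the 10, among 11726 genes with a mean of at least 5 CPM. Of these, 4.91% reached r = 0.99, and 6 points in 3 stages leave little room to tell them apart. The 10 closest had r of 0.9996 or more. They were Rttn, of centrioles, Uhrf1, a cofactor of maintenance methylation, Fam64a, the transcription factor Tead2, the cadherin Fat1, the helicase Brip1, Bbx, the DNA polymerase genes Pole and Pola1, and Ube2c. The measure ignores the size of the change. Uhrf1 stood at 429 (HP) and 396 CPM (SP) in precursors, 61.5 (yCA) and 83.2 CPM (yMSN) in young tissue, and 2.24 and 2.05 CPM in dMSN 1 and dMSN 2, and Fat1 at 322 (HP) and 312 CPM (SP) in precursors, 144 (yCA) and 168 CPM (yMSN) in young tissue, and 33.6 and 34.3 CPM in dMSN 1 and dMSN 2. Within the 10, Aurka had the lowest correlation with the mean profile to which it contributes, 0.988, and Cenpe the highest, 0.9998.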

How the data were processed

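The 6 libraries, of polyA RNA, were prepared with a TruSeq kit from 1 ug of total RNA, per the labels' protocols. The authors deposited raw read counts per gene symbol, with 5 HTSeq summary lines per library, which stayed out of library sizes and tests. These lines held 5.34% to 9.81% of reads in no gene, 1.38% to 2.01% ambiguous and 17.3% to 27.3% with several alignments. The submitters' processing notes name TopHat2 2.0.2, TopHat, Bowtie 1.0.0, HTSeq and edgeR among their tools, and mm9 and NCBIM37, without roles, and no strand setting is stated.

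Counts were tested in R 4.3.3 with edgeR 4.0.16 (TMM scaling, filterByExpr, quasi-likelihood F test, Benjamini-Hochberg over all genes, threshold 0.05). Young against precursor and striatal against hippocampal used lineage and stage as terms (18231 genes, 2 residual degrees of freedom). The dMSN comparisons and the difference between lineages used 1 mean per cell group (19192 genes, 1 residual degree of freedom). The SE is the log2 change divided by the square root of F. Ratios of single libraries carry exact conditional binomial 95% intervals and no test. Steps were tested on simulated data. Of 2-fold changes, 59.5% were recovered in young against precursor, 26% in dMSN against yMSN and 40% in dMSN against SP. Between lineages 56% were recovered, and 0% for the difference of changes. Apart from that difference, 5.17% to 10.5% of calls were false over the 2-fold and 4-fold settings, at a threshold of 0.05. Genes that did not pass may thus have changed. DESeq2 1.42.0, limma voom (limma 3.58.1), other scalings and filters and left-out libraries were alternatives. The dMSN libraries differed beyond sampling noise (chi-square per degree of freedom 172).

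The 10 genes and all lists were chosen with earlier results of these data known. Named genes are the 10, up to 3 with the largest fall and 1 with the smallest per list, members moving against their list, and the 10 closest profiles. The other NF-Y genes, Bub3, Aurkc, Cstf1 and Elovl1 were added after their values were seen. CPM depend on gene length, so levels are not compared between genes. Promoter windows come from RefSeq for GRCm38.p6.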

Additional observations from a re-analysis of the deposited data

How the results depend on the processing

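All 10 genes were called lower from precursor to young, from yMSN to dMSN and from SP to dMSN under each alternative run, 14, 13 and 13 in number, and none was called between lineages. No paired analysis was possible because the groups compared share fewer than 2 replicate numbers. The fall from yMSN could not be fitted without yMSN, nor that from SP without SP, each a single library.

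Without single libraries, log2 changes from precursor to young ranged from -2.70 to -2.37 for Bub1 and from -2.44 to -1.42 for Birc5. Without dMSN 1 or dMSN 2, 3590 and 3647 genes in all were called from precursor to young in place of 6841, and, with lineage and stage as terms, 6609 and 7073 from yMSN to dMSN in place of 12948, fits with fewer libraries in which the lone dMSN library is assumed to vary like the other groups. Between lineages, the count over all genes of 0 became 58 in DESeq2, 356 with 1 mean per cell group, and 1495, 1515, 116 and 130 without HP, SP, yCA and yMSN. For the difference of changes it was 998, and 3 in limma voom, with 59.9% of calls higher in edgeR, 43.0% in DESeq2, 49.8% with no filter and 100% of the 3 in voom. The causes were not tested.

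With relative log expression (RLE) scaling the median log2 ratio of yMSN over SP was -1.99 in place of -1.82, and -1.74 with library size alone, while the median of all genes moved from 0.10 to -0.02 and 0.16. The summed dMSN level was 21.2 CPM, and 16.8 CPM with library size alone. RLE moved the median change of all genes from 0.08 to -0.04 from precursor to young and from 0.20 to 0.08 from SP to dMSN, and upper quartile scaling moved it from -0.11 to -0.27 from yMSN to dMSN.

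Uncalled differences changed sign. The median over the 10 of striatal minus hippocampal was 0.117, and without single libraries it ranged from -0.116 (without yMSN) to 0.327 (without HP). Striatal minus hippocampal Bub1b was 0.019, and -0.032 with RLE, -0.035 with no filter, -0.021 with at least 1 CPM in 2 libraries and -0.032 in DESeq2. The difference of changes for Kif11 was 0.044, and -0.034, -0.079, -0.030 and -0.034 under the same alternatives. Without single libraries, striatal minus hippocampal values ranged from -0.087 to 0.24 for Bub1, -0.21 to 0.24 for Bub1b, -0.14 to 0.39 for Aurka, -0.020 to 0.53 for Aurkb, -0.18 to 0.41 for Plk1, -0.15 to 0.87 for Birc5, -0.031 to 0.26 for Cenpe, -0.042 to 0.20 for Tpx2 and -0.21 to 0.57 for Cdc20, the negative ones without yCA or yMSN.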
